A study of Saccharomyces cerevisiae with 10 samples.

Results

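The 56 genes described here encode the protein components of the small (40S) cytosolic ribosomal subunit of the budding yeast Saccharomyces cerevisiae, RPS0A to RPS31. They were chosen by gene identifier from the 6600 genes listed. The rule used no value of theirs, but earlier results of these data were known when it was set. They form 24 pairs of duplicated genes, an A and a B paralog each, and 8 single-copy genes, RPS2, RPS3, RPS13 and RPS31 among them, for 32 proteins in all. In the R64 annotation 36 of the 56 coding sequences are interrupted by an intron and 20 are not.

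All strains are of the S288C laboratory background, and they differ at MED15, a gene for a tail subunit of the Mediator coactivator complex. The groups are a med15 deletion, 3 strains that carry the MED15 allele named WY7, WY15 or WY23, and LAB, whose MED15 genotype is given as wild type. Each strain was grown in 2 separate fermentations of 5 mL, the medium being white grape juice with supplements, and polyadenylated RNA was sequenced at 35% weight loss. That point came after 48 h in the deletion and about 37 h in the strains with MED15, so the deletion and the longer culture cannot be told apart. Transcript levels are normalized counts, meaning reads per gene divided by 1 DESeq2 size factor per library. Changes are log2 differences of normalized count + 1, and a gene passed the test when its limma p, adjusted by the Benjamini-Hochberg method over the 6065 genes with a mean of at least 10, was under 0.05.

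The small subunit decodes messenger RNA. Its proteins are made in matched amounts with ribosomal RNA, and in yeast their genes are among the most highly transcribed during growth and are turned down together under nutrient limitation and stress. Their promoters are known for binding of Rap1, which recruits the activators Fhl1, Ifh1 and Sfp1, and a smaller number depend on Abf1. Most of the duplicates date from an ancient genome duplication, and the paralogs of a pair encode identical or nearly identical proteins from promoters of their own.

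The libraries held 22.7 to 29.3 M reads assigned to genes, and every one of the 56 genes had at least 1120 reads in each library, so counting error is small beside the spread between fermentations. MED15 had 12.1 and 11.9 normalized counts in the deletion, against 8238 to 10958 in the 8 libraries of the MED15 strains, as the labels state. The values are relative to the RNA of each library, so they show neither the number of cells nor the RNA per cell. The sum of normalized counts over all genes was 20.9 and 20.8 M in the deletion, against 25.9 to 29.5 M in the MED15 strains, so the choice of scaling bears on every deletion result below.

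The paralogs of a pair can be told apart only where their sequences differ. The last 120 coding bases of the RPS28 pair are shown because its A to B ratio had the largest change against LAB among the pairs named below that passed; capitals are bases that differ between the paralogs. They are from chrXV:648804-648923 (minus strand) and chrXII:673215-673334 (plus strand) of the RefSeq R64 genome.
RPS28A: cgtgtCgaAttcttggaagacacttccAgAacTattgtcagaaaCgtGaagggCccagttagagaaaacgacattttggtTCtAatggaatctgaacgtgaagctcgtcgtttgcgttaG
RPS28B: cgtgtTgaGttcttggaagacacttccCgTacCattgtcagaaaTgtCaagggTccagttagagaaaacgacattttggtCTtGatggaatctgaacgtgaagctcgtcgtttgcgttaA
The RPS28 pair shows 12 differences in these bases, of 24 in the whole coding sequence. In 20 of the 24 pairs every window of 100 coding bases differs from the other paralog. Of the others, in the RPS4, RPS6 and RPS24 pairs only 86.5%, 46.0% and 82.7% of such windows do, so the values of these 6 genes, taken singly, are uncertain. How reads that fit both copies were counted is not given in the sources used here.

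Promoter windows are shown for 2 of the pairs whose A to B ratio differed in the deletion (below): RPS30, with matches to the Rap1 motif (ACA, any base, CC, any 2 bases, ACA), and RPS28, with matches to the Abf1 motif (TCA, any 6 bases, ACG). Capitals mark the match, read on either strand. Each window lies within 500 bases before the start codon in the RefSeq R64 genome: chrXII:713320-713439 (minus strand) for RPS30A, chrXV:678958-679077 (minus) for RPS30B, chrXV:649106-649225 (minus) for RPS28A and chrXII:672896-673015 (plus) for RPS28B.
RPS30A: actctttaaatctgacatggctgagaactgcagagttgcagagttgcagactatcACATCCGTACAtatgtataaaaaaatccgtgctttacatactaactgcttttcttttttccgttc
RPS30B: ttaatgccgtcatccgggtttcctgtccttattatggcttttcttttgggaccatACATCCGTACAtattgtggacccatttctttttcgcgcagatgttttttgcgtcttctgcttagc
RPS28A: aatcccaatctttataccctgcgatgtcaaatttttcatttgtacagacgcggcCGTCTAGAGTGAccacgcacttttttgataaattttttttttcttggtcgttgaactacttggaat
RPS28B: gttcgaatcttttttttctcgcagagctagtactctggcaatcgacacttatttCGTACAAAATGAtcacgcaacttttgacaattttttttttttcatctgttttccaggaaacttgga
RPS30A and RPS30B each have 1 Rap1 match in these 120 bases. Over the 56 windows, 19 (33.9%) hold a Rap1 match, against 2.43% of the 5896 windows of all annotated genes. The Abf1 motif is in 12 of 56 windows (21.4%), near its share of 22.8% over all genes, and the Tbf1 motif ACCCTAA in 1 of 56 (1.79%), against 4.09%. No 2 matches of different motifs overlapped in these windows. The median change in the deletion against LAB was 0.17 for the 19 genes with a Rap1 match and 0.21 for the 37 without. A window without this exact motif may still bind Rap1, so nothing about Rap1 is read from these medians.

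In summed normalized counts, the small-subunit genes differed more between the fermentations of WY15 and of LAB than between the strain means. Summed over the 56 genes, the level was 379407 and 417731 normalized counts in the deletion, 389665 and 418962 with WY7, 518488 and 317259 with WY15, 398763 and 402128 with WY23, and 307123 and 417671 in LAB. The deletion, WY7 and WY23 thus lay close together, WY15 replicate 1 was the highest library, and LAB replicate 1 and WY15 replicate 2 were the lowest. As a share of all reads the 56 genes made up 1.82 and 2.01% in the deletion, against 1.18 to 1.91% in the 8 MED15 libraries. By share, 1 of the 2 deletion libraries was above every MED15 library and the other was below WY15 replicate 1. The strain means of the share ran from 1.35% in LAB to 1.91% in the deletion.

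**Figure D1:**
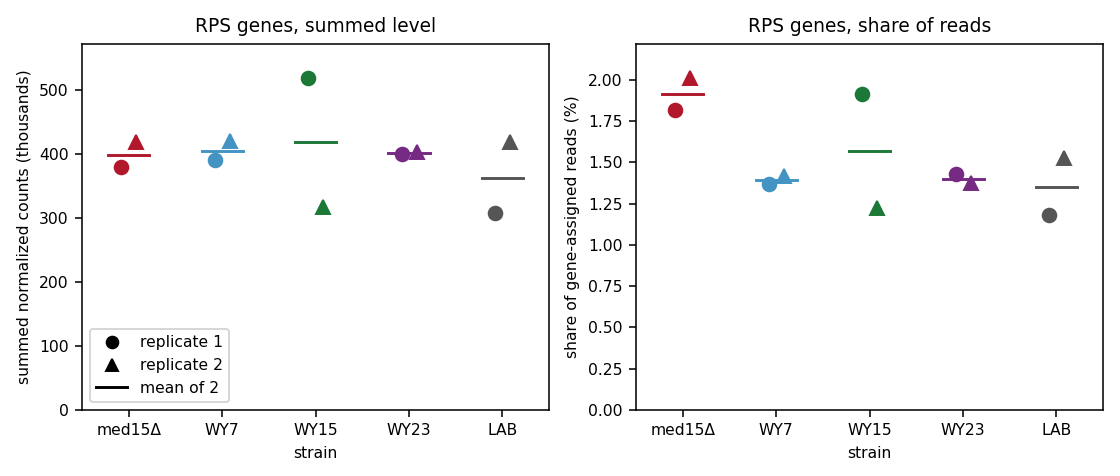
Summed normalized counts of the 56 genes (left) and their share of the reads assigned to genes (right, percent) for each strain; circles are replicate 1, triangles replicate 2, lines the mean of 2. The 2 WY15 libraries are the furthest apart, at 518488 and 317259 normalized counts, and the deletion has the highest mean share.

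Between the 2 fermentations of WY15, and between those of LAB, the genes moved nearly as a block. In WY15 replicate 1 exceeded replicate 2 in 56 of 56 genes, with a median difference of 0.75 on the log2 scale and a range of 0.23 to 1.29. In LAB replicate 1 was below replicate 2 in 55 of 56 genes, with a median of -0.45, and the exception was RPS30B, named here after its value was seen. The medians were -0.14 in the deletion, -0.11 with WY7, and near zero with WY23, where 30 of 56 genes were lower in replicate 1. Over all 6065 genes the median difference was between -0.01 and 0.01 in every strain, which the size factors bring about by design. The 81 large-subunit protein genes moved in the same way, with medians of 0.73 with WY15 and -0.45 in LAB.

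**Figure D2:**
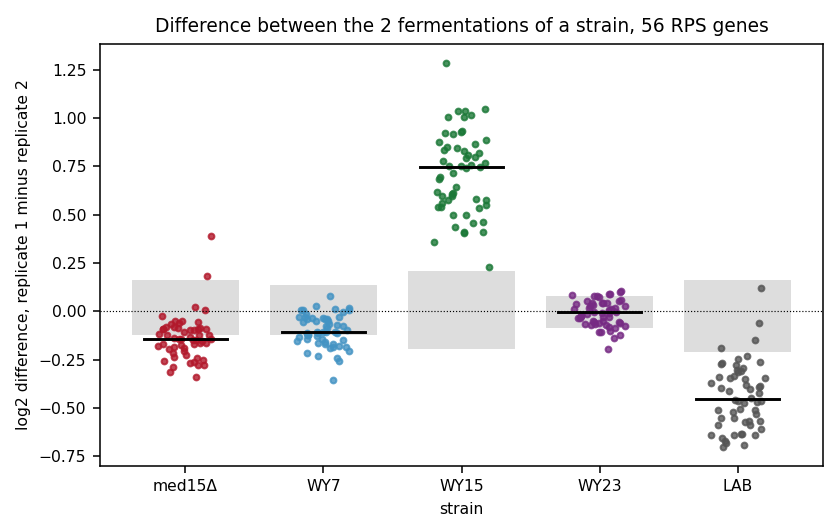
Log2 difference between replicate 1 and replicate 2 of each strain (vertical axis) for the 56 genes (points), with their median (black line) and the interquartile range of all 6065 genes (grey box). All 56 points lie above zero in WY15 and 55 of 56 below zero in LAB.

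The range of a gene over the 10 libraries had a median of 0.82 on the log2 scale, and 0.30 relative to the median of the 56 in each library. In RPS9A the range was 1.02 and became 1.15 relative to that median, in RPS14B 0.64 and 0.65, and in RPS25B 0.44 and 0.53, so in these 3 genes the range grew. OLE1, the fatty acid desaturase gene, and DAN1, a cell wall mannoprotein gene, both known for higher expression at low oxygen, were named after their values were seen. OLE1 had 58128 and 77999 normalized counts in the deletion, 154017 and 216973 with WY7, 165545 and 49685 with WY15, 201767 and 211018 with WY23, and 77775 and 203609 in LAB. DAN1 had 761 and 1129 normalized counts in the deletion, 1264 and 2614 with WY7, 6054 and 233 with WY15, 2802 and 2442 with WY23, and 423 and 3020 in LAB. WY15 replicate 2 and LAB replicate 1, the libraries lowest in small-subunit transcripts, were also the lowest in both genes among the MED15 strains. The part of culture state in the replicate difference was not tested.

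**Figure D3:**
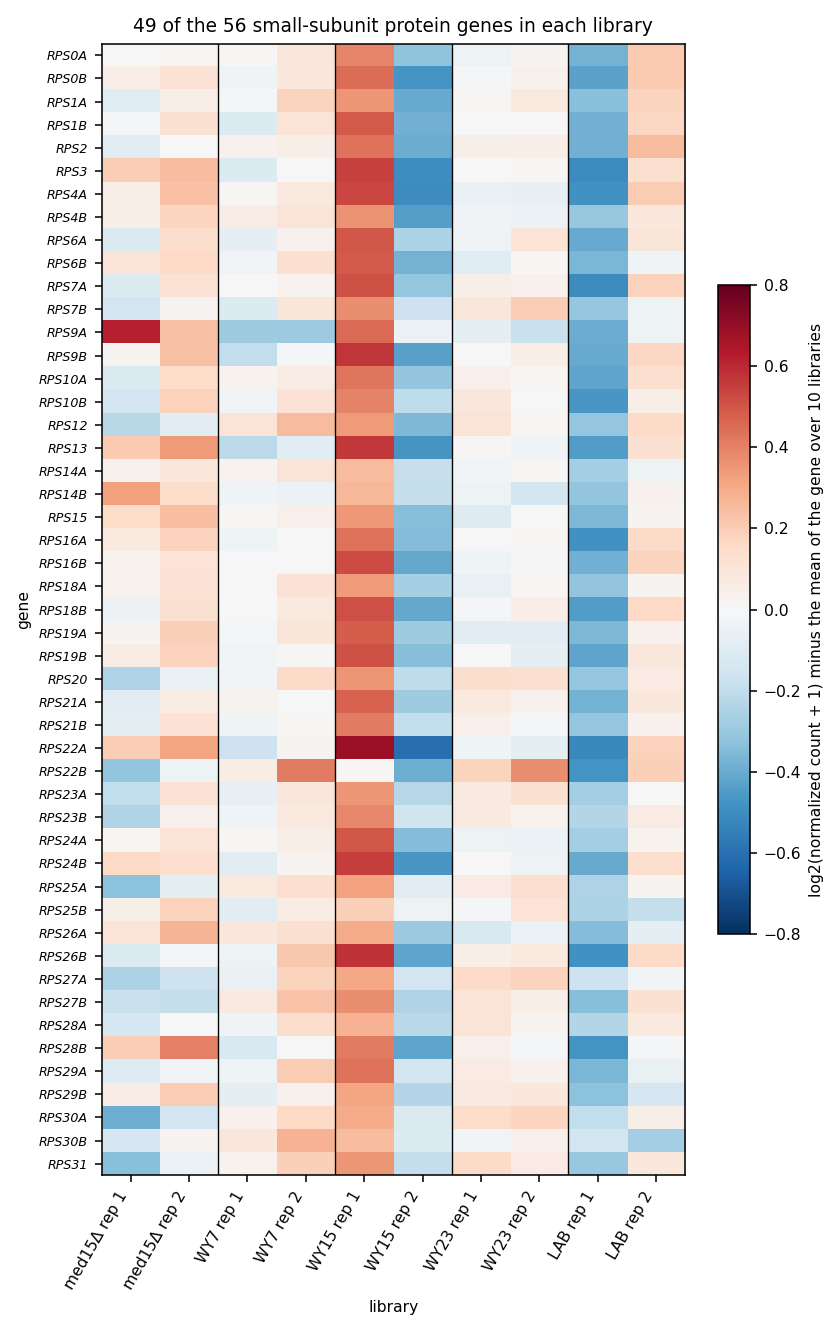
Log2 level of 49 of the 56 genes (rows) in each library (columns, replicates side by side) minus the mean of the gene over 10 libraries; red is higher, blue lower. The columns of WY15 replicate 1 (red), WY15 replicate 2 and LAB replicate 1 (blue) are nearly uniform.

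Per kilobase of coding sequence, the mean level over the 10 libraries ran from 2463 for RPS6A to 53249 for RPS30A. The coding sequence is 192 bases long in RPS30A and 711 in RPS6A. The median was 11837 per kb for the 36 genes with a coding intron and 21317 for the 20 without. Bowtie2 does not split reads over introns, which can lower the counts of genes that have them. Of the 8 single-copy genes, RPS13 alone has an intron. The part of length, introns, read placement and copy number in this order was not tested, and they cannot be told apart here. RPS30A, for a small protein of the decoding region, ranged over 40270 to 64815 normalized counts per kb. RPS31, made as a fusion with ubiquitin, averaged 44366 ± 6691 per kb, and RPS26A, for a protein at the mRNA exit channel, 37936 ± 5631 per kb (SD, n = 10 libraries). The gaps between these 3 neighbours were of the order of the spread between libraries, which includes shifts that the genes share. Compared within each library, RPS30A was above RPS31 in every library. RPS31 was above RPS26A in every library of the MED15 strains. In the deletion RPS31 was below RPS26A, at 34831 and 42520 against 40413 and 45253 normalized counts per kb. RPS30A, at 40270 per kb, was also just below RPS26A in deletion replicate 1. The lowest levels were those of RPS9A, 3015 ± 756 per kb, RPS6B, 2678 ± 479 per kb, and RPS6A, 2463 ± 431 per kb (SD, n = 10 libraries), and the RPS6 values are uncertain because more of their windows are shared than are unique. With the paralogs of a pair added up, the 24 duplicated proteins had a median of 26204 normalized counts per kb (range 5141 to 83636). The 8 single-copy genes had a median of 27569 (range 14712 to 44366). The medians were thus close, while single proteins spread widely.

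Within pairs, the balance between paralogs ranged from near equal to strongly one-sided. RPS9B supplied 82.1 ± 3.07% of the RPS9 level per kb and RPS14A 79.1 ± 1.51% of the RPS14 level (SD, n = 10 libraries). RPS9 lies at the mRNA entry side of the subunit, and RPS14 on its platform. RPS7 and RPS16 were the most balanced pairs: RPS7B supplied 50.1 ± 2.49% and RPS16A 50.3 ± 1.05% (SD, n = 10 libraries), and the larger paralog changed from library to library, being RPS7B in 5 and RPS16A in 6 of 10.

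In the deletion against LAB, RPS9A and RPS25B were higher and no small-subunit gene was lower. That is 2 of 56 genes (3.57%), against 36.6% of all genes that passed in this comparison, 18.9% higher and 17.7% lower. The median change of the 56 was 0.18, with 46 of 56 positive, against 0.00 over all genes, which the size factors hold near zero. The standard error of a single gene was 0.11 to 0.38, so that most of these changes were smaller than the spread between fermentations.

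RPS9A (YPL081W, chrXVI:404950-406044, plus strand, with an intron) had 2691 and 2054 normalized counts in the deletion, 1435 and 1429 with WY7, 2391 and 1691 with WY15, 1652 and 1542 with WY23, and 1327 and 1694 in LAB. Both deletion libraries were above both LAB libraries, and WY15 replicate 1 lay between the 2 deletion libraries. The change was 0.65 ± 0.20 against LAB (SE, limma adjusted p = 0.033) and, set against the 4 MED15 strains on average, 0.54 ± 0.15 (SE, limma adjusted p = 0.020). Without deletion replicate 1 the second of these was 0.34 and did not pass (limma adjusted p = 0.21). The call against LAB was lost without deletion replicate 1 (0.45), without LAB replicate 1 (0.47) and without any 1 of the 4 WY7 and WY23 libraries (0.65 each), the highest limma adjusted p among them being 0.18.

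RPS25B (YLR333C, chrXII:795573-795899, minus strand, no intron) encodes a protein needed in yeast for initiation at some viral internal ribosome entry sites. It had 6126 and 6762 normalized counts in the deletion, against 4993 and 5198 in LAB. The WY strains had 5591 to 6785 normalized counts and overlapped the deletion. The change was 0.34 ± 0.11 against LAB (SE, limma adjusted p = 0.047). It did not pass against the 4 MED15 strains together, at 0.14 ± 0.09 (SE, limma adjusted p = 0.21). Leaving out any 1 library other than those of WY15 ended the call against LAB (0.27 to 0.41, limma adjusted p up to 0.22).

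Of the 4 largest changes against LAB, the 3 after RPS9A did not pass, though each was larger than that of RPS25B. RPS28B had 2575 and 2968 normalized counts in the deletion, against 1611 and 2234 in LAB, a change of 0.54 ± 0.26 (SE, limma adjusted p = 0.13). RPS13, a single-copy gene, had 10025 and 11009 in the deletion, against 6350 and 9451 in LAB, a change of 0.44 ± 0.31 (SE, limma adjusted p = 0.29). In both genes the deletion was above both LAB libraries, yet WY15 replicate 1 was higher than either deletion library. RPS22A had 3764 and 4100 normalized counts in the deletion, against 2297 and 3732 in LAB, a change of 0.42 ± 0.38 (SE, limma adjusted p = 0.41).

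**Figure D4:**
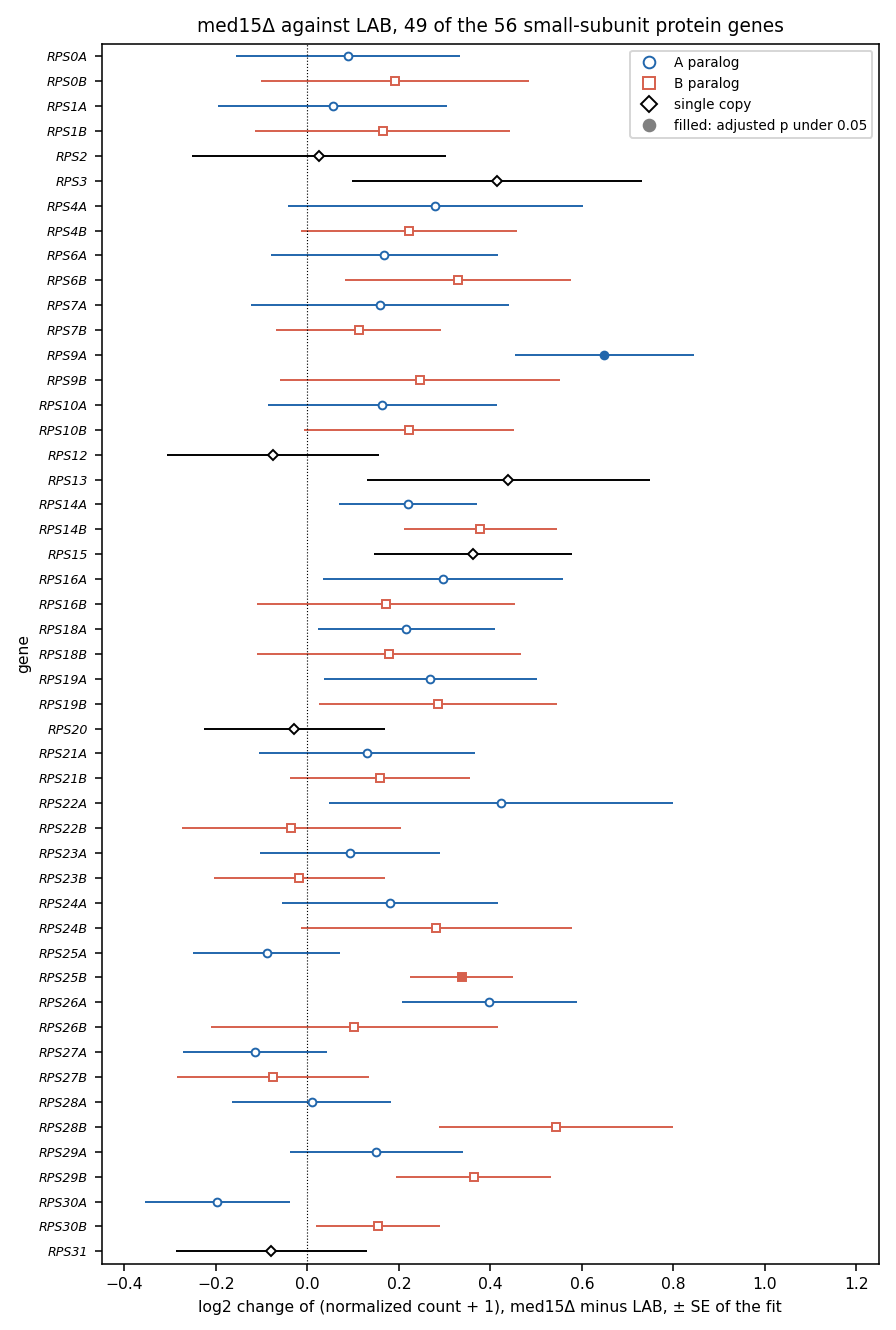
Log2 change of 49 of the 56 genes in the deletion minus LAB (horizontal axis), with the SE of the limma fit as bars; circles are A paralogs, squares B paralogs, diamonds single-copy genes, and filled symbols have an adjusted p under 0.05. RPS9A (0.65) and RPS25B (0.34) are filled, and 40 of the 49 symbols lie to the right of zero.

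Against the mean of the 4 MED15 strains, 1 of 56 genes passed (1.79%, against 49.9% of all genes, with 25.6% higher), and it was RPS9A. The median was 0.07, with 36 of 56 positive. RPS30A had the largest negative change, at -0.34 ± 0.13 (SE, limma adjusted p = 0.052): it had 7732 and 9095 normalized counts in the deletion, 10387 and 11334 with WY7, 12444 and 9355 with WY15, 11201 and 11395 with WY23, and 8831 and 10464 in LAB. Only LAB replicate 1 fell between the 2 deletion libraries. The 2 comparisons share the deletion libraries and LAB, so their values are not independent.

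The shift against LAB rested on LAB replicate 1. Without it the median of the 56 was -0.04, with 21 of 56 positive and 0 genes past the limma threshold (0 at an unadjusted p under 0.05). Without LAB replicate 2 the median was 0.43, with 54 of 56 positive and 1 gene past the threshold. Without either WY15 library, whose spread enters the fit, 6 genes passed against LAB, all higher: RPS9A, RPS14B, RPS25B, RPS26A, RPS28B and RPS29B. The scaling mattered as well. With every library scaled to the same sum, 23 of 56 genes passed against LAB, all higher, with a median of 0.53, while the median of all genes moved to 0.36. That scaling moves all genes of a library alike, so it leaves the median of the 56 minus that of all genes at 0.17. Quantile normalization, which can move it, gave 0.36, with 6 genes past the threshold, all higher.

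In no gene of the 56 did both deletion libraries lie outside the range of the 8 MED15 libraries, which 51.9% of all genes did (26.6% above it). Relative to the median of the 56 in each library, 25 genes did, 17 above and 8 below, against 28.9% of all genes on that scale. Centring on their own median takes the shared spread out of the 56 and adds it to other genes, so the 2 shares are not comparable and nothing is read from their difference. Those below included RPS12, RPS20, RPS25A, RPS27A, RPS27B, RPS30A and RPS31. Those above included both paralogs of RPS4 and RPS19, and the B but not the A paralog of RPS28 and RPS29. All were named after their values were seen.

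In a minority of pairs the balance between paralogs differed in the deletion. The ratio of A to B was tested for all 61 gene pairs of the genome named A and B, most of them ribosomal, and adjusted over the 61. Because both paralogs come from the same library, this ratio does not change when a library is rescaled. Against LAB, 4 of 24 small-subunit pairs passed (16.7%, against 26.2% of the 61), each with a lower share of the A paralog, RPS28, RPS25 and RPS30 among them. Against the mean of the 4 MED15 strains 6 of 24 passed (25%, against 36.1% of the 61), the same 4 with RPS29, also lower, and RPS22, higher. In neither comparison did the share of small-subunit pairs exceed that of all pairs. The RPS9 ratio changed by 0.40 ± 0.25 against LAB (SE, limma adjusted p = 0.29) and 0.38 ± 0.20 against the mean (SE, limma adjusted p = 0.18). It was 0.332 and 0.218 in the deletion and 0.181 to 0.285 in the MED15 libraries. The higher level of RPS9A is thus not shown to be particular to that paralog.

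The ratio of RPS28A (YOR167C) to RPS28B (YLR264W) was 1.66 and 1.59 in the deletion, 2.23 and 2.32 with WY7, 1.91 and 2.41 with WY15, 2.18 and 2.14 with WY23, and 2.48 and 2.22 in LAB. Every MED15 library was above both deletion libraries. The log2 change was -0.53 ± 0.11 against LAB (SE, limma adjusted p = 0.011). RPS28A alone did not pass, with 4273 and 4710 normalized counts in the deletion, against 3999 and 4965 in LAB, a change of 0.01 ± 0.17 (SE, limma adjusted p = 0.97). RPS28 contacts mRNA near the exit channel, and in yeast its protein limits the mRNA of RPS28B through decay.

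The ratio of RPS25A (YGR027C) to RPS25B was 1.24 and 1.34 in the deletion, 1.81 and 1.70 with WY7, 1.76 and 1.55 with WY15, 1.71 and 1.63 with WY23, and 1.62 and 1.87 in LAB. The deletion lay below all 8 MED15 libraries. The log2 change was -0.43 ± 0.10 against LAB (SE, limma adjusted p = 0.011). RPS25A had 7619 and 9085 normalized counts in the deletion, against 8068 and 9705 in LAB, a change of -0.09 ± 0.16 (SE, limma adjusted p = 0.69).

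The ratio of RPS30A to RPS30B was 1.47 and 1.54 in the deletion, 1.68 and 1.61 with WY7, 1.80 and 1.74 with WY15, 1.96 and 1.91 with WY23, and 1.69 and 2.18 in LAB. The deletion again lay below all 8, but the 2 LAB libraries differed from each other more than LAB replicate 1 did from the deletion. The log2 change was -0.35 ± 0.11 against LAB (SE, limma adjusted p = 0.041). RPS29A to RPS29B, for a zinc-binding protein, was 0.541 and 0.516 in the deletion, against 0.584 to 0.680 in the MED15 libraries, a change of -0.24 ± 0.06 against their mean (SE, limma adjusted p = 0.011).

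The ratio of RPS22A to RPS22B was 2.59 and 2.33 in the deletion, 1.55 and 1.38 with WY7, 2.90 and 1.57 with WY15, 1.57 and 1.33 with WY23, and 1.77 and 1.81 in LAB. WY15 replicate 1 was above both deletion libraries. The log2 change was 0.54 ± 0.18 against the 4 MED15 strains together (SE, limma adjusted p = 0.039) and 0.46 ± 0.23 against LAB (SE, limma adjusted p = 0.18). The intron of RPS22B holds the small nucleolar RNA gene SNR44, the only overlap with another annotated gene among the 56, so reads there may belong to either.

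**Figure D5:**
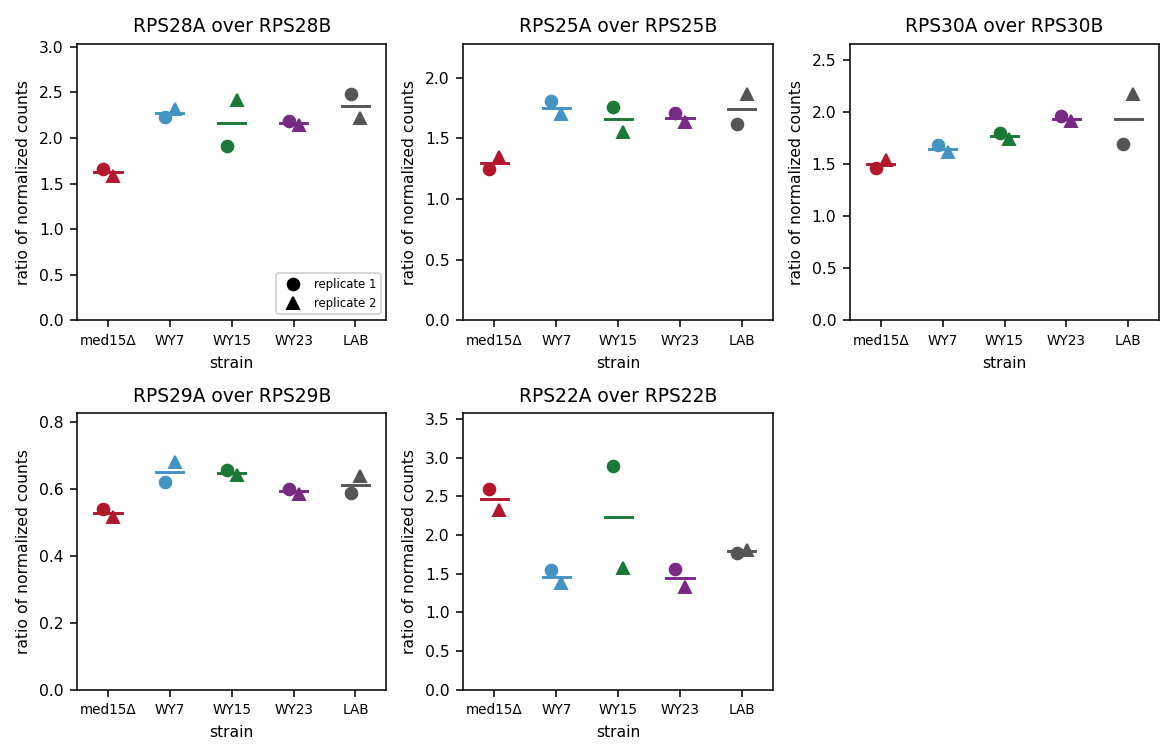
Ratio of the A to the B paralog in normalized counts (vertical axis, from 0) in each library of 5 of the pairs that passed in the deletion; circles are replicate 1, triangles replicate 2, lines the mean of 2. The deletion lies below all 8 MED15 libraries for RPS28, RPS25, RPS30 and RPS29, and WY15 replicate 1 (2.90) is above it for RPS22.

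In 7 of 24 pairs both deletion libraries lay outside the range of the 8 MED15 libraries, against 36.1% of the 61. The ratio was below that range in 6, among them RPS0, RPS25, RPS28, RPS29 and RPS30, and above it in RPS26. RPS0 (limma adjusted p = 0.37 against LAB, 0.25 against the mean) and RPS26 (0.22 and 0.078) did not pass. RPS0 was only just outside, at 0.696 in deletion replicate 1 against 0.697 in WY15 replicate 1. The ratio calls rested on both deletion libraries. Without deletion replicate 2, 0 of 24 ratios passed against LAB, with RPS28 at -0.50, RPS25 at -0.48 and RPS30 at -0.39. Without deletion replicate 1, 2 passed, RPS28 but neither RPS25 nor RPS30 among them, and the same was so without LAB replicate 2. RPS30 was also lost without any 1 of the WY7 and WY23 libraries (-0.35). Without either WY15 library 6 ratios passed, RPS22 and RPS29 being the added ones. Against the mean over MED15 strains, only the RPS25 call held without deletion replicate 2, while those of RPS28 and RPS29 held without deletion replicate 1. RPS22 and RPS30 were each lost without any 1 of the deletion, WY7 and WY23 libraries. Over all single omissions RPS22 stayed at 0.43 to 0.65 and RPS30 at -0.32 to -0.22.

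Among the 4 MED15 alleles no small-subunit gene passed. In WY7, WY15, WY23 and their mean against LAB, limma, edgeR and DESeq2 each called 0 of 56 genes, as limma called 0 of 6065 (0%). At an unadjusted limma p under 0.05 there were 1, 1, 1 and 2 genes of 56. The medians were 0.17 with WY7, 0.20 with WY15, 0.15 with WY23 and 0.18 in their mean, where all 56 genes were positive with standard errors of 0.09 to 0.31. Without LAB replicate 1 the medians were -0.04, -0.01, -0.07 and -0.03 in the same order, so the sign of all 4 rested on that library. WY15 against LAB was at -0.16 without WY15 replicate 1 and 0.56 without WY15 replicate 2. No A to B ratio of the 24 pairs passed in any allele comparison (0% of the 61), with 0 of 24 at an unadjusted p under 0.05.

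Other genes of the pathway were read from lists for comparison with the deletion against LAB. Of the 81 large-subunit protein genes 4 passed (4.94%, against 36.6% of all genes), all higher, with a median of 0.21: RPL18B changed by 1.36 ± 0.19, RPL22B by 0.93 ± 0.20, RPL7B by 0.89 ± 0.24 and RPP1B by 0.67 ± 0.21 (SE). RPL10 (0.35 ± 0.23) and RPL3 (0.30 ± 0.30), 2 abundant members that did not pass, were within about 1.5 SE of zero. Each of the 4 that passed is a B paralog, a trait seen after the result. The share of B paralogs among the 81 was not set beside it, so no paralog difference is read from it. Without LAB replicate 1 the median was -0.01, with 39 of 81 positive and 2 past the threshold, RPL7B (0.67) and RPP1B (0.48) being lost. RPL7B was also lost without deletion replicate 1 (0.82) or 2 (0.97), and RPP1B without either of these (0.74 and 0.60) and without any 1 of the WY7 and WY23 libraries (0.67). Under quantile normalization 14 of 81 were higher, and with equal sums 37 of 81.

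The mitochondrial ribosome has a small subunit of its own, and of its list of 32 genes 17 were lower and 1 higher (56.2%, against 36.6% of all genes), with a median of -0.30, a direction that was the same under quantile normalization (13 lower, 1 higher, median -0.33) and turned under equal library sums. The largest changes were RSM7 at -1.11 ± 0.16, MRPS18 at -0.65 ± 0.08, RSM22 at -0.61 ± 0.11 and PET123 at -0.57 ± 0.10 (SE). With equal sums 7 were higher and 2 lower and the median was 0.06, still below the 0.36 of all genes, of which 2871 were then higher and 425 lower. MRP4 (-0.05 ± 0.08) did not pass. KGD4, listed under an older ribosomal name, is a subunit of a dehydrogenase complex and did not pass (-0.07 ± 0.19).

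Of 15 regulators of ribosomal protein and ribosome biogenesis genes, 1 was higher and 4 lower (33.3%, against 36.6% of all genes). Quantile normalization gave 2 higher and 3 lower, and equal sums, which raise all genes in the deletion alike, 5 higher and 1 lower. CRF1, a corepressor of ribosomal protein genes, changed by 1.80 ± 0.26, with means of 6028 ± 102 normalized counts in the deletion and 1755 ± 431 in LAB (SD, n = 2 each). STB3 (-0.85 ± 0.15) and DOT6 (-0.56 ± 0.13), repressors of ribosome biogenesis genes, were lower, as was FHL1 (-0.43 ± 0.08), which binds ribosomal protein promoters. DOT6 was at 0.05 and did not pass under quantile normalization, and its call was lost without deletion replicate 1 (-0.48) and without LAB replicate 2 (-0.43). SCH9 (-0.46 ± 0.17), a growth-control kinase, and SFP1 (0.09 ± 0.10), an activator, did not pass.

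Of 20 factors of small-subunit assembly and partners of the ribosome, 1 was higher and 5 lower (30%, against 36.6% of all genes). Quantile normalization gave 2 higher and 4 lower, and equal sums 7 higher and 1 lower. NOP1, the fibrillarin methyltransferase of early assembly, changed by 1.03 ± 0.32, a call lost without LAB replicate 1 (0.68), without either deletion library (0.91 without replicate 1, 1.16 without replicate 2) and without any 1 of the WY7 and WY23 libraries (1.03). The late assembly kinases RIO2 (-0.75 ± 0.09) and RIO1 (-0.57 ± 0.15) and the export factor LTV1 (-0.62 ± 0.15) were lower. The calls of RIO1 and LTV1 were lost without deletion replicate 2 (-0.41 and -0.53) and without LAB replicate 2 (-0.46 and -0.45). STM1 (0.16 ± 0.23), which binds idle ribosomes, and HRR25 (0.08 ± 0.13), a kinase of late assembly, did not pass.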

How the data were processed

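The members and gene lists were chosen with earlier results of these data known. The values deposited by the authors are signal per gene and library: reads of a gene over the DESeq2 size factor of its library. Per the submitters' processing notes, Trim Galore, Bowtie2, featureCounts and DESeq2 were used with sacCer3 and R64; the library kit keeps strand, while versions and the strand and multi-mapping options used in counting are not given here. Bowtie2 does not split reads over introns, which 36 of the 56 genes have. Whole reads were recovered by dividing out the step of each library (100% of values within 1e-06). The RefSeq R64 annotation matched 5917 of 6600 identifiers. limma 3.58.1 in R 4.3.3 was fitted to log2(value + 1) for 6065 genes with a mean of at least 10, with 5 group means, 5 residual degrees of freedom, a variance trend and two-sided tests, and likewise to log2 A to B ratios of 61 pairs. edgeR 4.0.16 and DESeq2 1.42.0 on the recovered reads, other scalings, pseudocounts, filters, a replicate block and leaving out libraries were alternatives. Both fits were tested on simulated data with known changes in the deletion against LAB. The gene fit recovered 30.5% of 1.5-fold and 78% of 2-fold changes. The ratio fit recovered 40% of 1.2-fold and 86.7% of 1.5-fold changes, so small changes could often go uncalled. In these simulations 200 of 6065 genes and 15 of 61 pairs were changed. Their noise was drawn apart for each gene or pair, unlike the shared shifts seen here. The rates are therefore not those of the 56 genes or their pairs. Genes given per library are those that passed, or the 4 largest changes where fewer than 4 did, the 3 highest and 3 lowest per kb, pairs whose ratio passed, and the 2 most and 2 least balanced pairs. Counts cover all 56 genes; some of them are not reported by name here or drawn. From other lists, up to 4 that passed and 2 abundant ones that did not are named. The 2 fermentations of a strain are biological replicates, per the series design text.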

Additional observations from a re-analysis of the deposited data

How the results depend on the processing

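For the deletion against LAB, 2 small-subunit genes passed; with quantile scaling 6, with equal sums 23 (median 0.53), with edgeR 1, with only the groups compared in the fit 0 (5 at an unadjusted p under 0.05), without the variance trend 1, and 0 to 6 on leaving out 1 library. Against the mean of the MED15 strains 1 passed; with quantile scaling 12, with equal sums 32 (median 0.48, and RPS30A reversed to 0.0702), with DESeq2 2, and 0 to 9 on leaving out 1 library. The summed level in the deletion over LAB was 1.10, and 1.42 with equal sums. Ratios passed in 4 pairs against LAB (0 to 6 on leaving out 1 library), 6 against the mean (1 to 7) and 0 among the alleles (0 to 1). The replicate block gave 1 gene against LAB, 1 against the mean, and 3 and 5 ratios; 3 of 10 correlations between same-numbered deviations were over 0.1 (-0.50 to 0.41), so the numbers were not taken to pair fermentations. 3 further settings were chosen after seeing the data. Leaving out the WY15 strain gave 6 and 5 genes. Leaving out LAB replicate 1 and WY15 replicate 2, the libraries lowest in these genes, gave 2 genes lower and 0 higher against LAB, 13 against the mean (2 higher, 11 lower), 8 and 10 ratios and 5 ratios among the alleles. Leaving out LAB replicate 1 and the WY15 strain gave 2 genes, both lower, and 8 ratios against LAB. The libraries were picked by the outcome itself, so these directions are partly set by that choice. The cause of these shifts was not tested. Every member had at least 1120 reads in each library, so counting error was small beside the spread between fermentations.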
